A study of Mus musculus with 16 samples.

Results

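Integrins are the cell surface receptors for the extracellular matrix, and laminins are the trimeric glycoproteins that form the core of the basement membrane on which an epithelium stands. The genes described here were the integrin alpha chains (Itga), the integrin beta chains (Itgb) and the laminin chains (Lama, Lamb and Lamc) of the mouse, found by their gene symbols alone. This gave 37 of the 53711 genes in the table, namely 18 integrin alpha chains, 8 integrin beta chains and 11 laminin chains. RNA-seq had been carried out on 16 libraries of embryonic mouse stomach, in a study of how squamous and columnar epithelium are separated at the squamocolumnar junction. By their strain label, all groups carried both reporters, Sox2-EGFP and Gata4-td Tomato, which are knock-in alleles that mark cells using the Sox2 and the Gata4 promoter, and all were of 1 mixed strain background.

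Epithelial cells were sorted as EpCAM-positive and then by EGFP and td Tomato. The groups were Sox2hi (E13.5, n = 3), Gata4hi (E13.5, n = 3) and Sox2midGata4mid cells with intermediate levels of both reporters (E13.5, n = 2). They are defined by reporter level and carry no label of position. One further Sox2hi and one further Gata4hi library came from E11.5. Fibroblasts were sorted as PDGFRα-positive cells of the proximal or the distal stomach, with 1 library for each position at each of the stages E13.5, E15.5 as well as E17.5. Nothing in the descriptions says from which embryos or litters the libraries came, so p-values measure only the spread between libraries.

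An integrin is a pair of 1 alpha and 1 beta chain, and the pair decides the ligand. Alpha3 and alpha6 chains bind laminins, alpha1, alpha2, alpha10 and alpha11 bind collagens, and alpha5, alpha8, alphav and alpha2b bind proteins with the tripeptide RGD, such as fibronectin and vitronectin. The beta4 chain pairs with alpha6 and anchors the epithelium through hemidesmosomes, which hold stratified epithelia such as the forestomach lining to the basement membrane. A laminin is a trimer of 1 alpha, 1 beta and 1 gamma chain, in which the alpha chain carries the main integrin binding site. Laminin with the Lama3 chain is that of hemidesmosomes, the trimer of Lama5, Lamb1 and Lamc1 is widespread in epithelial basement membranes, and trimers with the Lama2 or Lama4 chain surround muscle, nerve and vessels.

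Values are FPKM, fragment counts scaled by transcript length and by library size, which can be set side by side between genes. In the library totals, FPKM summed to between 436296 and 656588, and between 18 and 22 of the 37 chains reached 1 FPKM in each library. Relative to Sox2hi replicate 1, the depth read from the steps of the low values was 0.718 to 1.07 in the E13.5 epithelium, 0.464 and 0.760 at E11.5, and 0.393 to 0.786 in the fibroblasts. The absolute depth is unknown. The libraries carried their labels: Gata4 was at 3.21 to 7.26 FPKM in E13.5 Sox2hi, 39.95 to 84.4 FPKM in Sox2midGata4mid and 157 to 199 FPKM in Gata4hi, while Sox2 ranged from 49.9 to 94.1 FPKM in all E13.5 epithelial libraries. Summed over 7 epithelial markers, the level was 1087 to 1653 FPKM in epithelial and 1.49 to 9.35 FPKM in fibroblast libraries. Summed over 7 fibroblast markers, it was 9.48 to 102 FPKM in epithelial and 4590 to 33338 FPKM in fibroblast libraries. In bulk libraries, fewer cells of a type and less RNA per cell cannot be told apart.

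Promoter sequence is shown because the sorted groups differ in a GATA and a SOX factor. RefSeq (GRCm38.p6) had a promoter entry for 23 of the 37 genes, in 26 windows of the 250 bases before a transcription start. Of the 7 genes called between Gata4hi and Sox2hi cells in all 16 alternatives of processing, 3 had a searched entry and are shown. They are Itgb7 (chr15:102231936-102232185, minus strand), Itga2 (chr13:114932101-114932350, minus strand) and Itgb5 (chr16:33829415-33829664, plus strand). Each is written 5′ to 3′ up to the base before the start, and capitals mark a GATA word or a SOX word.
Itgb7: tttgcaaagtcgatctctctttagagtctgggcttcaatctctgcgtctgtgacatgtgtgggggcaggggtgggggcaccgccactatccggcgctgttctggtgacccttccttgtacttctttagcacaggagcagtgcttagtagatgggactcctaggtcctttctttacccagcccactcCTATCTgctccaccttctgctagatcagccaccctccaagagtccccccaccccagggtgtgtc
Itga2: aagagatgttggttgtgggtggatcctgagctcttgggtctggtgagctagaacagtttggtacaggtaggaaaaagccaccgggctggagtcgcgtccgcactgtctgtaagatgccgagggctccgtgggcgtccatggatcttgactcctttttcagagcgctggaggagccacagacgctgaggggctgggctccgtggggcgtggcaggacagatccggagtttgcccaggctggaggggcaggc
Itgb5: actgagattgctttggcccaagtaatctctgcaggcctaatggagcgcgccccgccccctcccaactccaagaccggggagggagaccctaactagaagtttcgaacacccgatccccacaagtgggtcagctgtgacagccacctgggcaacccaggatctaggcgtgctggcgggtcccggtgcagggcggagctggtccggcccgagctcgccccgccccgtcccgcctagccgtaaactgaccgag
The GATA words searched were the letters AGATAA, the letters AGATAG, the letters TGATAA and the letters TGATAG, and the SOX word was the letters CATTGT, each on both strands, and none of these is part of another. The Itgb7 window held 1 GATA word, as CTATCT on the strand printed, whose first base lies 64 bases before the start. Neither word was in the windows of Itga2 and Itgb5. Of the 26 windows, 2 held a GATA word (Itgb7 and Itgax) and 1 a SOX word (Itga8). Among all 32851 RefSeq windows of this length, 26.5% held a GATA word and 10.7% a SOX word, so a match in 1 window is a description only.

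The 37 genes fell into a few with high levels everywhere, a few restricted to 1 compartment, and a group near 0. Itgb1, the beta chain shared by most laminin, collagen and fibronectin receptors, was the most abundant integrin on average, at 77.6 to 96.5 FPKM in the 8 E13.5 epithelial libraries and 170 to 265 FPKM in the 6 fibroblast libraries. Lamb1 and Lamc1, the most widespread beta and gamma chains, were at 63.7 to 85.9 and at 49.97 to 85.9 FPKM in the E13.5 epithelium. In fibroblasts they were at 85.0 to 205 and at 38.4 to 150 FPKM. In all, 9 genes were at 1 FPKM or more in every library (Itga5, Itgav, Itgb1, Itgb5, Lama1, Lama5, Lamb1, Lamb2 and Lamc1). At the other end, 7 genes stayed below 1 FPKM in every library, with 0.401 FPKM the highest value among them. These were Itga10 and the 6 leukocyte chains Itgad, Itgae, Itgal, Itgam, Itgax and Itgb2, which white blood cells use to adhere to vessels and to other cells. Summed over 8 leukocyte markers, the level was 1.26 to 5.70 FPKM in epithelial and 0.690 to 3.32 FPKM in fibroblast libraries. Itga7, a laminin receptor chain of muscle, was at 0.142 FPKM or less in the epithelium and at 0.0781 to 1.03 FPKM in fibroblasts.

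**Figure D1:**
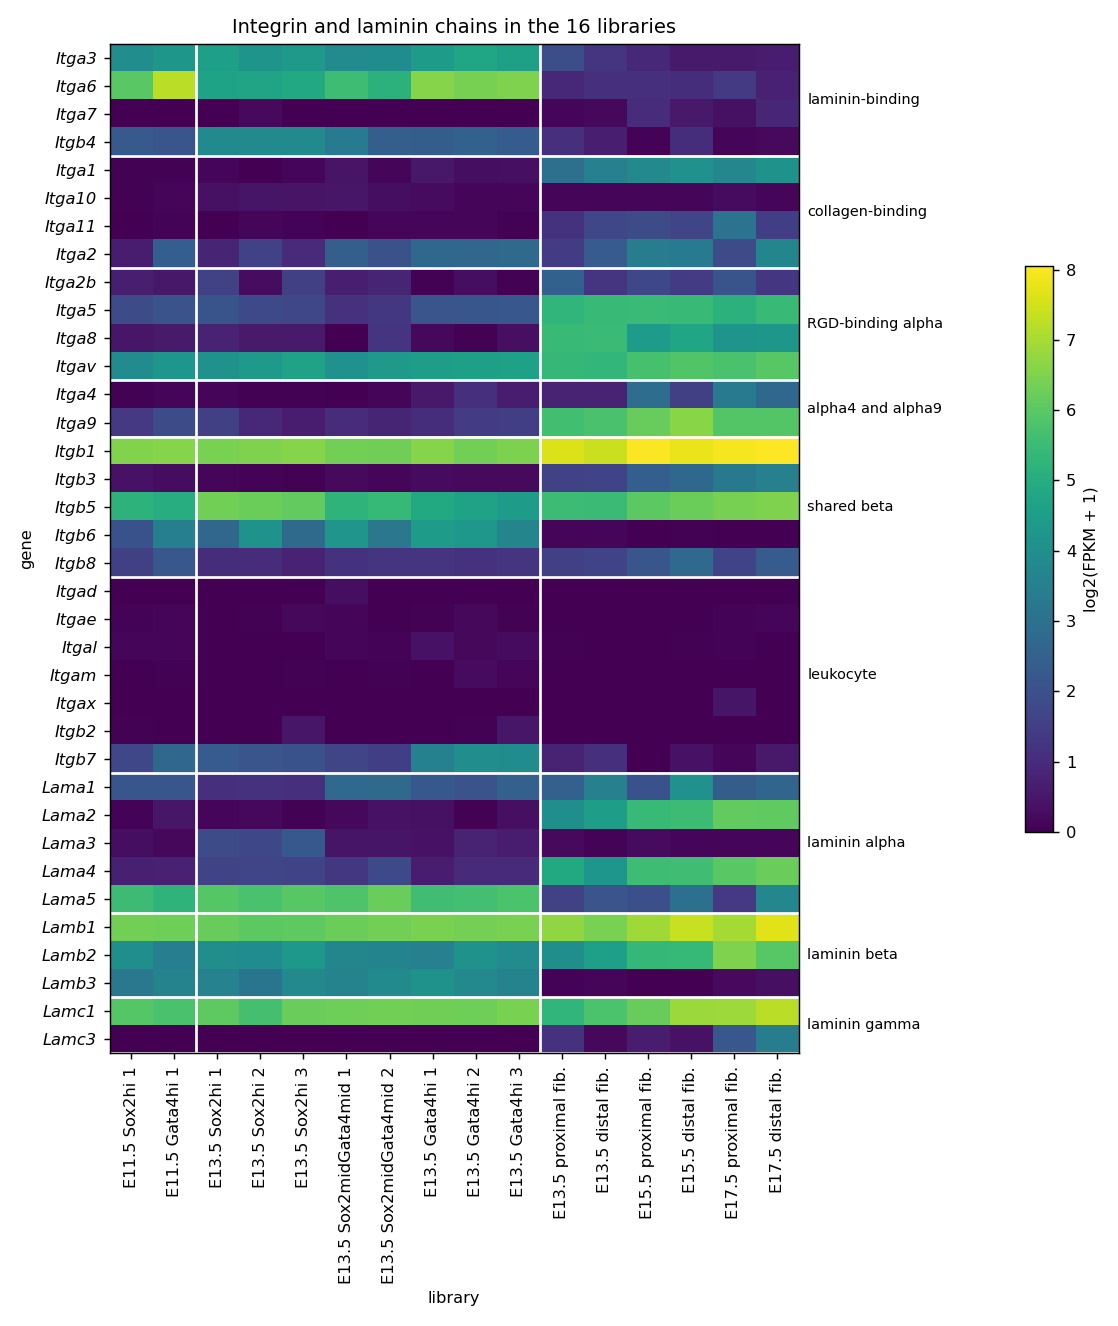
Level of 36 of the 37 genes (rows, grouped by role) in each of the 16 libraries (columns), as log2(FPKM + 1) by colour, with white lines between roles and between the E11.5 epithelium, the E13.5 epithelium and the fibroblasts. Itgb1, Lamb1 and Lamc1 are bright in all columns, Itga6, Itga3, Lama5, Lamb3 and Itgb6 mainly in the epithelial columns, and Lama2, Lama4, Itga1, Itga5, Itga8 and Itga9 mainly in the fibroblast columns.

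Nearly all laminin alpha chain RNA of the epithelium came from Lama5. As a share of the summed FPKM of the 5 alpha chains, Lama5 took 87.8% to 91.0% in the 8 E13.5 epithelial libraries and 88.8% and 91.1% at E11.5. The remaining share differed between the sorted groups. Lama3 took 3.93% to 5.31% in Sox2hi against 0.593% to 1.29% in Gata4hi and 0.449% and 0.605% in Sox2midGata4mid. Lama1 took 1.73% to 2.15% in Sox2hi, 5.86% to 7.59% in Gata4hi, and 7.24% and 9.05% in Sox2midGata4mid. The Sox2hi group did not overlap with either of the others in these shares. In fibroblasts Lama5 took 1.12% to 7.795%, whereas Lama2 took 30.0% to 50.3% and Lama4 33.3% to 56.9%.

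**Figure D2:**
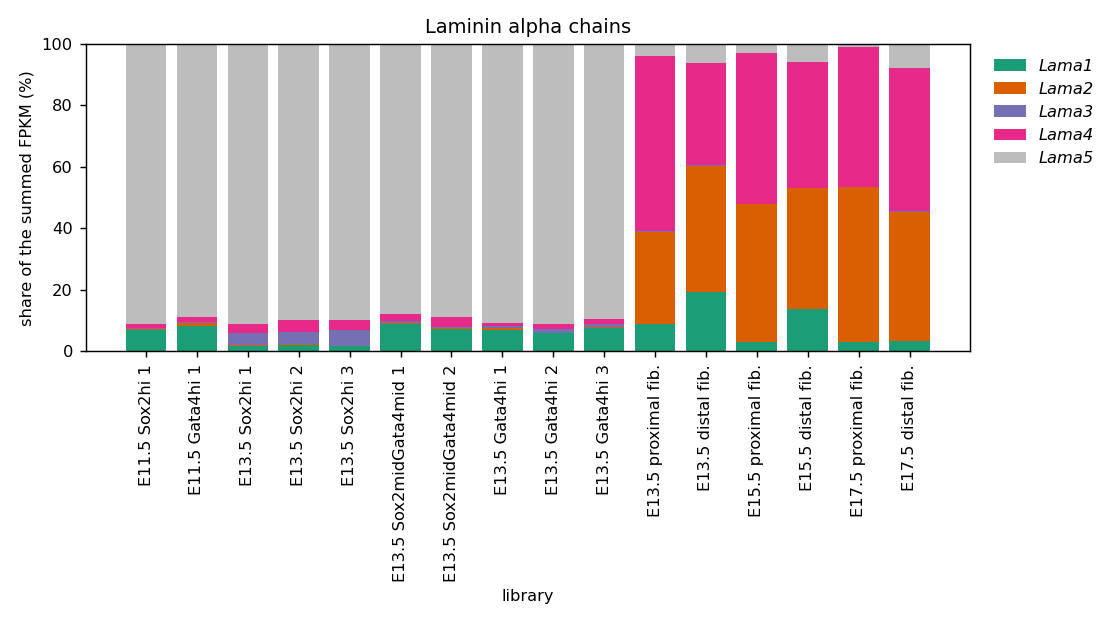
Share of each chain in the summed FPKM of the laminin alpha chains, in percent, 1 bar per library. Lama5 fills 87.8% to 91.1% of every epithelial bar, and Lama2 with Lama4 fill most of every fibroblast bar.

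Integrin alpha chains were also divided between the compartments. Itga6 took 34.0% to 37.1% of the alpha chain FPKM in Sox2hi, 46.1% and 54.6% in Sox2midGata4mid and 57.7% to 63.8% in Gata4hi. Itga3 took 24.2% to 30.4% in Sox2hi and 14.0% to 17.9% in Gata4hi. In fibroblasts Itga9 took 25.6% to 38.05%, Itga5 16.6% to 21.4% and Itga8 8.27% to 22.7%, with Itga8 above Itga5 in both E13.5 libraries. Itgav was shared by the compartments, with 19.5% to 27.9% in fibroblasts and 22.9% to 30.5% in Sox2hi. It took 19.0% and 25.0% in Sox2midGata4mid and 14.6% to 15.6% in Gata4hi. Shares are descriptions and were not tested.

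The comparison of E13.5 Gata4hi with Sox2hi cells asks how epithelial cells at the ends of the reporter range differ. Gata4hi cells had more Itga6, Itgb7, Itga2, Lama1 and Lamb1 RNA, and Sox2hi cells had more Itgb4, Itgb5, Lama3 and Lama4 RNA. The fit was limma on log2(FPKM + 1) of the 8 E13.5 epithelial libraries, restricted to genes whose mean reached 1 FPKM, with Benjamini-Hochberg adjustment over 13127 genes. Of the 37 genes, 21 passed the filter, and 5 were called higher and 4 lower in Gata4hi at an adjusted p under 0.05. Over all genes tested 21.6% were called, 14.9% higher and 6.7% lower. The median log2 fold change was 0.25 over the 21 and 0.08 over all genes. The all-gene median was -0.05 after rescaling each library to TPM, so that all libraries have the same sum, and -0.03 after quantile normalization. In 12 of the 21 genes the 3 Gata4hi and the 3 Sox2hi libraries did not overlap, as in 38.6% of all genes tested.

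Among laminin-binding integrins, Itga6 and Itgb4, whose products form 1 receptor, differed in opposite directions. Itga6 was at 24.7, 25.3 and 29.0 FPKM in Sox2hi, at 46.0 and 35.5 FPKM in Sox2midGata4mid and at 94.7, 83.8 and 89.7 FPKM in Gata4hi. Every Gata4hi library was thus above every other E13.5 epithelial library, and Sox2hi was lowest. The change was 1.73 ± 0.11 on the log2 scale (SE, adjusted p = 5.56e-05). Itgb4 was at 13.1, 13.2 and 13.04 FPKM in Sox2hi, 8.80 and 4.40 FPKM in Sox2midGata4mid and 4.21, 4.64 and 4.05 FPKM in Gata4hi. Sox2hi stood above both other groups, and 1 of the Sox2midGata4mid libraries lay within the Gata4hi range. The change was -1.41 ± 0.20 (SE, adjusted p = 0.001998). The ratio of Itga6 to Itgb4 was therefore 1.89 to 2.22 in Sox2hi, 5.23 and 8.07 in Sox2midGata4mid and 18.1 to 22.5 in Gata4hi. Itga3, the other laminin receptor chain of this epithelium, was at 17.0 to 22.2 FPKM in Sox2hi and 20.7 to 26.0 FPKM in Gata4hi and was not called (adjusted p = 0.202).

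Itga2, the collagen receptor chain of many epithelia, was at 0.800, 1.93 and 0.927 FPKM in Sox2hi, 4.40 and 3.04 FPKM in Sox2midGata4mid and 5.40, 5.29 and 5.88 FPKM in Gata4hi. The groups did not overlap, and Sox2hi was lowest, and Gata4hi exceeded it by 1.59 ± 0.22 (log2, SE, adjusted p = 0.00166). Itgb7, a chain best known from lymphocytes that home to the gut, was at 3.99, 3.35 and 3.06 FPKM in Sox2hi, 2.203 and 1.79 FPKM in Sox2midGata4mid and 10.7, 14.3 and 14.1 FPKM in Gata4hi. Gata4hi was far above the rest and Sox2midGata4mid was lowest, and the change between Gata4hi and Sox2hi was 1.65 ± 0.15 (SE, adjusted p = 2.26e-04). Its alpha partners were scarce: Itgae was at 0.138 FPKM or less in these 8 libraries and Itga4 reached 0.453 to 1.12 FPKM in Gata4hi against 0.101 FPKM or less in the others. The summed leukocyte markers were 1.802 to 5.70 FPKM in Sox2hi and 3.74 to 5.57 FPKM in Gata4hi, ranges that overlap. Of these markers, Laptm5 was at 0, 0 and 0.959 FPKM in Sox2hi and 1.59, 3.19 and 1.77 FPKM in Gata4hi. The other markers of the list overlapped between these groups. Itgb2, the defining leukocyte beta chain, was at 0 in 4 of the 8 libraries and at 0.397 FPKM or less in the rest. Itgal was at 0.00632 FPKM or less in Sox2hi and 0.128 to 0.303 FPKM in Gata4hi. Summed over 5 mesothelial markers, the level was 1.39 to 1.94 FPKM in Sox2hi and 7.48 to 10.6 FPKM in Gata4hi. Msln alone made 0.721 to 0.857 FPKM in Sox2hi and 6.93 to 9.86 FPKM in Gata4hi. The part of leukocytes or of mesothelial cells in the differences between these groups was not tested.

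Itgb5, which pairs with alphav to bind vitronectin, was at 79.4, 74.2 and 69.3 FPKM in Sox2hi, 37.1 and 41.0 FPKM in Sox2midGata4mid and 28.8, 24.04 and 20.9 FPKM in Gata4hi. The 3 groups were fully ordered, and the change in Gata4hi was -1.57 ± 0.12 (log2, SE, adjusted p = 1.09e-04). Its partner Itgav did not differ beyond the spread, at 16.7 to 24.2 FPKM in Sox2hi and 21.6 to 23.2 FPKM in Gata4hi (0.17 ± 0.14 SE, adjusted p = 0.442). Itgb6, another partner of alphav, was at 5.27, 16.7 and 5.96 FPKM in Sox2hi and 20.5, 18.8 and 11.7 FPKM in Gata4hi. The groups overlapped through Sox2hi replicate 2, and the change of 0.93 ± 0.44 (SE) was not called (adjusted p = 0.188). Without that library it was 1.41 and was called (adjusted p = 0.0328). Itgb1, Itgb8, Itga5 and Itga9 were not called either, with log2 fold changes from -0.05 to 0.32.

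Laminin alpha chains changed in both directions. Lama1, the first laminin alpha chain of the embryo, was at 1.164, 1.26 and 1.19 FPKM in Sox2hi, 5.77 and 5.94 FPKM in Sox2midGata4mid and 3.63, 3.17 and 4.55 FPKM in Gata4hi. Sox2midGata4mid was highest and Sox2hi lowest without overlap, and the change between Gata4hi and Sox2hi was 1.11 ± 0.15 (SE, adjusted p = 0.00148). Lama3, the hemidesmosome chain, was at 2.58, 2.35 and 3.66 FPKM in Sox2hi, 0.385 and 0.369 FPKM in Sox2midGata4mid and 0.308, 0.700 and 0.514 FPKM in Gata4hi. Sox2hi stood apart and the other groups overlapped, with a change of -1.35 ± 0.22 (SE, adjusted p = 0.00370). Lamb3, the beta chain that joins Lama3, was at 7.84 to 12.9 FPKM in Sox2hi and 11.04 to 16.8 FPKM in Gata4hi and was not called (adjusted p = 0.284). Lamb3 contains the locus of G0s2 on the opposite strand (up to 27.4 FPKM), and the strand setting of the counting is not stated in the sources used here.

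Lama4, a chain of mesenchymal and vascular basement membranes, was at 2.11, 2.18 and 2.18 FPKM in Sox2hi, 1.46 and 2.46 FPKM in Sox2midGata4mid and 0.554, 0.934 and 0.970 FPKM in Gata4hi. Gata4hi was lowest without overlap with Sox2hi, with a change of -0.80 ± 0.20 (SE, adjusted p = 0.0258). The call was lost without any of Sox2hi replicates 1 to 3, without Gata4hi replicate 1 or 2 and with replicates 1 and 2 only (adjusted p 0.0562 to 0.0956). The summed fibroblast markers were also higher in Sox2hi, at 62.8 to 102 FPKM against 9.48 to 20.98 FPKM in Gata4hi, and their part in the Lama4 difference was not tested. Without Dcn, the sum of the other 6 markers was 5.01 to 11.1 FPKM in Sox2hi and 8.72 to 20.3 FPKM in Gata4hi. Lamb1 was at 71.8, 63.7 and 65.9 FPKM in Sox2hi and 85.5, 81.3 and 85.9 FPKM in Gata4hi, a change of 0.32 ± 0.07 (SE, adjusted p = 0.0152) without overlap. That call was lost under TPM or quantile scaling, without Sox2hi replicate 2 or Gata4hi replicate 1 and with replicates 1 and 2 only (adjusted p 0.0544 to 0.157). Lama5, Lamb2 and Lamc1 were not called, with log2 fold changes of -0.21, -0.21 and 0.35, although Lamc1 was called without Sox2hi replicate 3 (0.47, adjusted p = 0.0490).

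**Figure D3:**
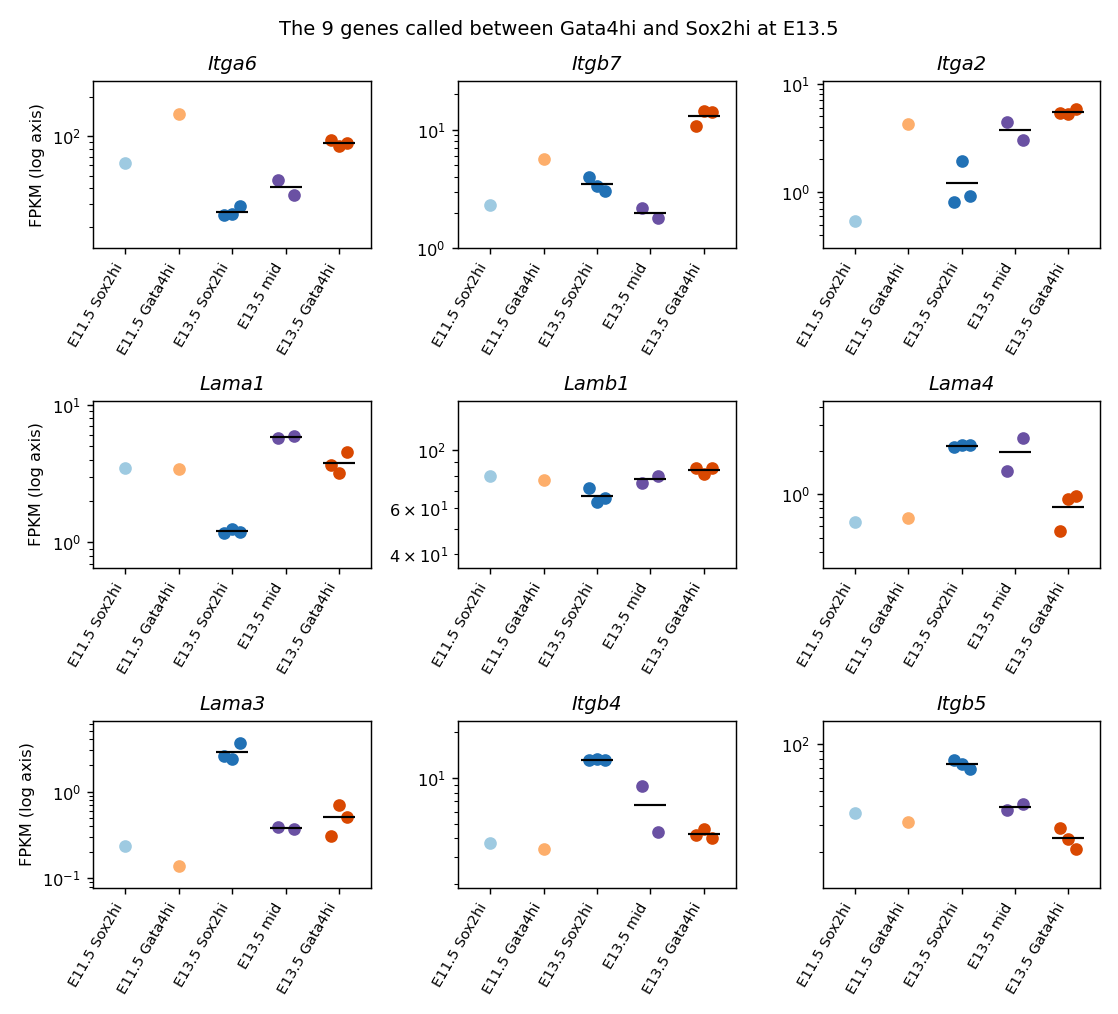
FPKM (log axis) of the 9 genes called between Gata4hi and Sox2hi at E13.5, 1 point per library, with a line at the mean of each group of 2 or 3 libraries ("mid" is Sox2midGata4mid). Itga6, Itgb7, Itga2, Lama1 and Lamb1 are higher in E13.5 Gata4hi than in E13.5 Sox2hi, and Lama4, Lama3, Itgb4 and Itgb5 are lower; the E11.5 groups are 1 library each.

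Genes that work with these chains were compared from lists of their functions. Of 3 hemidesmosome partners tested, all 3 were lower in Gata4hi: Dst, which links keratin filaments to the beta4 chain, by -0.98 ± 0.21, the linker Plec by -0.55 ± 0.12 and the tetraspanin Cd151 by -0.50 ± 0.10 (log2, SE, adjusted p = 0.0123, 0.0142 and 0.00884). Mean Dst fell from 23.5 FPKM in Sox2hi to 11.3 FPKM in Gata4hi. Of 15 other basement membrane genes tested, 2 were higher and 8 lower. Nid1, which bridges laminin and collagen IV, rose from a mean of 0.571 to 7.17 FPKM (2.44 ± 0.35, adjusted p = 0.00197). Col18a1, a basement membrane collagen, was at a mean of 43.0 FPKM in Sox2hi and 2.35 FPKM in Gata4hi (-3.72 ± 0.32, adjusted p = 1.62e-04), and Sparc, which binds collagen IV, at 81.7 and 9.505 FPKM (-2.98 ± 0.12, adjusted p = 9.96e-06).

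Among 6 genes listed as other laminin receptors, Sdc4 was higher and Bcam and Sdc1 were lower. Bcam, which binds laminin alpha5 chains, changed by -0.90 ± 0.11 (SE, adjusted p = 0.00110). Of 15 further integrin ligands tested, 5 were higher and 5 lower. Fn1, the fibronectin gene, rose from a mean of 7.31 to 48.2 FPKM (2.57 ± 0.11, adjusted p = 1.02e-05), and Thbs1, a thrombospondin, was at 96.6 and 10.15 FPKM (-3.27 ± 0.36, adjusted p = 5.53e-04). Of 23 activators and adaptors that link integrins to actin, 6 were higher and 3 lower, led by Zyx (1.36 ± 0.10) and Actn1 (1.10 ± 0.09) upward and Tns4 (-1.87 ± 0.20) downward.

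Sox2midGata4mid cells have intermediate levels of both reporters, and each comparison with them asks whether a chain is intermediate or stands apart. Against Sox2hi, 3 of the 21 genes were called higher (Lama1, Itga2 and Itga6) and 3 lower, Lama3 and Itgb5 among them, where 5.55% of all genes tested were called, 2.54% higher and 3.01% lower. Lama1 changed by 1.64 ± 0.17, Itga2 by 1.11 ± 0.24 and Itga6 by 0.60 ± 0.13 (log2, SE). Lama3 changed by -1.47 ± 0.24 and Itgb5 by -0.91 ± 0.14. With the replicate number as a block, Lama1 (1.69, adjusted p = 0.0116) and Itgb5 (-0.99, adjusted p = 0.0159) were the calls that remained. Itga6 then had an adjusted p of 0.0502, Lama3 of 0.0511 and Itga2 of 0.112. The Itgb5 call was lost without Sox2midGata4mid replicate 1 (adjusted p = 0.0931), and Lama1 was called in all 16 alternatives. The Lama3 call held in 11 of 16 and was lost without Sox2hi replicate 1 or either Sox2midGata4mid library (up to 0.0732). Itgb4, not called here (-0.96, adjusted p = 0.0528), was called without Sox2midGata4mid replicate 1 (-1.39, adjusted p = 0.00773). The calls of Itga2 and Itga6 each held in 4 of 16, and were lost without most single libraries (up to 0.235 and 0.192).

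Against Gata4hi, 1 gene was called higher in Sox2midGata4mid (Itgb5, 0.66 ± 0.14 SE) and 4 lower (Itgb7, Itga6, Itga5 and Itga3), where 13.6% of all genes tested were called, 2.59% higher and 11% lower. Itgb7 changed by -2.22 ± 0.17 (SE, adjusted p = 0.00108) and Itga6 by -1.12 ± 0.13 (SE, adjusted p = 0.00315), and both held in all 16 alternatives. Itga5, the fibronectin receptor chain, was at 1.21 and 1.48 FPKM in Sox2midGata4mid against 2.26 to 3.26 FPKM in Sox2hi and 3.31 to 3.56 FPKM in Gata4hi. It was thus lowest in Sox2midGata4mid, with a change of -0.93 ± 0.18 against Gata4hi (SE, adjusted p = 0.0149) that was lost without either Sox2midGata4mid library (up to 0.0639). Itga3 lost its call with the block (adjusted p = 0.0524), under TPM or quantile scaling, with replicates 1 and 2 only and without either Sox2midGata4mid library or Gata4hi replicate 2. The Itgb5 call was lost without either Sox2midGata4mid library, without Gata4hi replicate 2 and with only the 2 groups compared (up to 0.123). On the TPM scale the all-gene median moved from -0.13 to 0.13, and 3 genes were called higher.

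In the main fit no chain was called highest in Sox2midGata4mid in both limma comparisons and none lowest, where 0.198% and 0.587% of all genes were. Lama1 was called above Gata4hi, as above Sox2hi, under TPM scaling (0.85, adjusted p = 0.0351) and with no variance trend (0.53, adjusted p = 0.0484). With no variance trend Itga5 was called below Sox2hi (-0.64, adjusted p = 0.0435) and below Gata4hi. At an unadjusted p under 0.05 in both, 1 gene was highest (Lama1) and 4 were lowest, Itga3, Itga5 and Itgb7 among them.

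At E11.5, 1 library per group gives differences with no replicate check. At 5 FPKM or more in either library, 7.81% of 9874 genes differed by 2-fold, 4.47% higher in Gata4hi and 3.34% lower. Of the integrin and laminin genes at that level, 3 were higher by 2-fold in Gata4hi and none was lower. Those at that level without a 2-fold difference included Itga3, Itgav, Itgb1, Itgb5, Lama5, Lamb1, Lamb2, Lamb3 and Lamc1. Itga6 was at 62.3 FPKM in Sox2hi and 148 FPKM in Gata4hi (log2 difference 1.24), Itgb6 at 3.10 and 10.1 FPKM (1.43) and Itgb7 at 2.296 and 5.65 FPKM (1.013). These 3 genes were also higher on average in Gata4hi at E13.5, although Itgb6 was not called there. Itga2, below the 5 FPKM limit, was at 0.541 and 4.25 FPKM.

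The other E13.5 differences were small or absent at E11.5. Itgb5 was at 35.9 FPKM in Sox2hi and 31.3 FPKM in Gata4hi, Itgb4 at 3.73 and 3.39 FPKM, Lama1 at 3.48 and 3.43 FPKM and Lama3 at 0.234 and 0.139 FPKM. For Itgb4 and Lama3 both E11.5 libraries lay below every E13.5 Sox2hi library, and for Itgb5 likewise. For Lama1 both lay above every E13.5 Sox2hi library. The difference between stages was not tested, since each E11.5 group is 1 library. The erythroid markers were highest in the E11.5 Gata4hi library, at 72.4 FPKM summed over 6 genes against 6.93 FPKM in E11.5 Sox2hi.

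Fibroblasts were followed over 3 stages to describe the mesenchyme below the epithelium. From E13.5 to E17.5, 5 of the 8 laminin chains tested (Lama2, Lama4, Lamb2, Lamc1 and Lamc3) and 6 of the 15 integrin chains rose, and 1 integrin chain fell. In the limma fit with position as a covariate, 23 of the 37 genes were tested, 11 were called higher at E17.5 and 1 lower, where 37.1% of 12900 genes were called, 9.96% higher and 27.1% lower. The median log2 fold change was 0.70 over the 23 genes and -0.31 over all genes. Since the all-gene median was 0 under TPM scaling and -0.10 under quantile normalization, changes are also given relative to it. All 12 calls held under both scalings and lay on the same side of the all-gene median. The limit is the number of libraries: without either E13.5 fibroblast library no gene of the whole table was called. Of the 12 calls, those of Itga8, Itgb3, Lama2, Lamc1 and Lamc3 were left without the E17.5 proximal library, and those of Itga8, Itgb3, Itgb5, Lama2, Lamb2 and Lamc1 without the E17.5 distal library. Without either E15.5 library those of Itga1, Itgav, Itgb1 and Lamc3 were lost.

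Laminin chains made up 5 of the 11. Lama2 was at 15.1, 42.1 and 68.8 FPKM in proximal and 21.9, 45.4 and 66.9 FPKM in distal fibroblasts at the successive stages, a change of 1.84 ± 0.17 (SE, adjusted p = 0.00573). Lama4 was at 28.7, 46.2 and 62.2 FPKM in proximal and 17.9, 47.2 and 74.0 FPKM in distal fibroblasts (1.54 ± 0.24, adjusted p = 0.0124). Both chains were thus higher at each later stage in each position. Lamb2, a beta chain of muscle and kidney basement membranes, was at 15.03, 39.8 and 89.4 FPKM in proximal and 22.2, 41.0 and 61.4 FPKM in distal fibroblasts (1.96 ± 0.27, adjusted p = 0.00943). Lamc1 was at 38.4, 71.6 and 116 FPKM in proximal and 53.8, 114 and 150 FPKM in distal fibroblasts (1.51 ± 0.12, adjusted p = 0.00493). Again every later stage was higher, and for Lamc1 distal was above proximal at each stage.

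Lamc3, a less widespread gamma chain, was at 1.25, 0.562 and 3.51 FPKM in proximal and 0.134, 0.310 and 9.33 FPKM in distal fibroblasts. Its rise came after E15.5, and the change of 2.095 ± 0.58 (SE, adjusted p = 0.0475) was lost in 8 of 11 alternatives, among them a pseudocount of 0.1 and the removal of any library except the E17.5 proximal one. Relative to the all-gene median, Lama2, Lama4, Lamb2, Lamc1 and Lamc3 changed by 2.15, 1.85, 2.28, 1.83 and 2.41. Lamb1 was at 104, 119 and 125 FPKM in proximal and 85.0, 164 and 205 FPKM in distal fibroblasts and was not called (0.76 ± 0.26, adjusted p = 0.0792), although it was called under TPM scaling (0.0308) and quantile normalization (0.0377). The endothelial markers, summed over 7 genes, were 1.35 to 2.43 FPKM up to E15.5 and 7.601 and 13.6 FPKM at E17.5, of which Tek alone made 6.94 and 12.8 FPKM. Among the other markers of the list, Cdh5 and Emcn were at 0 in both E17.5 libraries and Pecam1 was at 0.322 and 0.228 FPKM. Tie1 was at 0.108 and 0.593 FPKM, Kdr at 0.2004 and 0.0487 FPKM and Cldn5 at 0.0338 and 0 FPKM (proximal first). The smooth muscle markers were 467 to 1499 FPKM with no order by stage. The part of these cell types in these changes was not tested.

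Among integrins, Itga4, which binds fibronectin and the vascular adhesion molecule VCAM, was at 0.692, 6.42 and 8.81 FPKM in proximal and 0.725, 1.91 and 5.66 FPKM in distal fibroblasts. It rose in both positions, with proximal above distal from E15.5, by 2.24 ± 0.38 (SE, adjusted p = 0.0142). The neural crest, neuron and glia markers, cell types that also use this chain, summed to 16.6 and 17.52 FPKM at E13.5 and to 19.6 (proximal) and 100 FPKM (distal) at E17.5, and their part was not tested. Itgb3, a partner of alphav, was at 1.91, 4.31 and 8.61 FPKM in proximal and 2.16, 5.66 and 10.3 FPKM in distal fibroblasts (1.78 ± 0.17, adjusted p = 0.00592). Itgb5 (0.92), Itga1 (0.68), Itgav (0.52) and Itgb1 (0.47) were called with smaller changes. Of these, Itga1, Itgav and Itgb1 lost the call in most alternatives, including the removal of any 1 of the 6 libraries. Pelo, which lies inside Itga1 on the same strand, reached 26.1 FPKM, above any value of Itga1 itself.

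Itga8, a receptor chain of mesenchyme that binds nephronectin, was the gene called lower. It was at 42.9, 20.7 and 16.9 FPKM in proximal and 43.7, 26.2 and 18.3 FPKM in distal fibroblasts, a change of -1.25 ± 0.14 (SE, adjusted p = 0.00659), or -0.94 relative to the all-gene median. The fall stood mostly between E13.5 and E15.5 in both positions. The chains not called included Itga3 (2.83 and 1.37 FPKM at E13.5, 0.485 and 0.534 FPKM at E17.5, proximal first) and Itga5, which stayed at 35.4 to 44.0 FPKM in all 6 libraries. By size alone, 7 of the 23 genes were 2-fold higher at E17.5 in both positions (Itga4, Itgb3, Lama2, Lama4, Lamb2, Lamc1 and Lamc3) and 1 was 2-fold lower (Itga8), where 5.41% and 7.33% of all genes were.

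**Figure D4:**
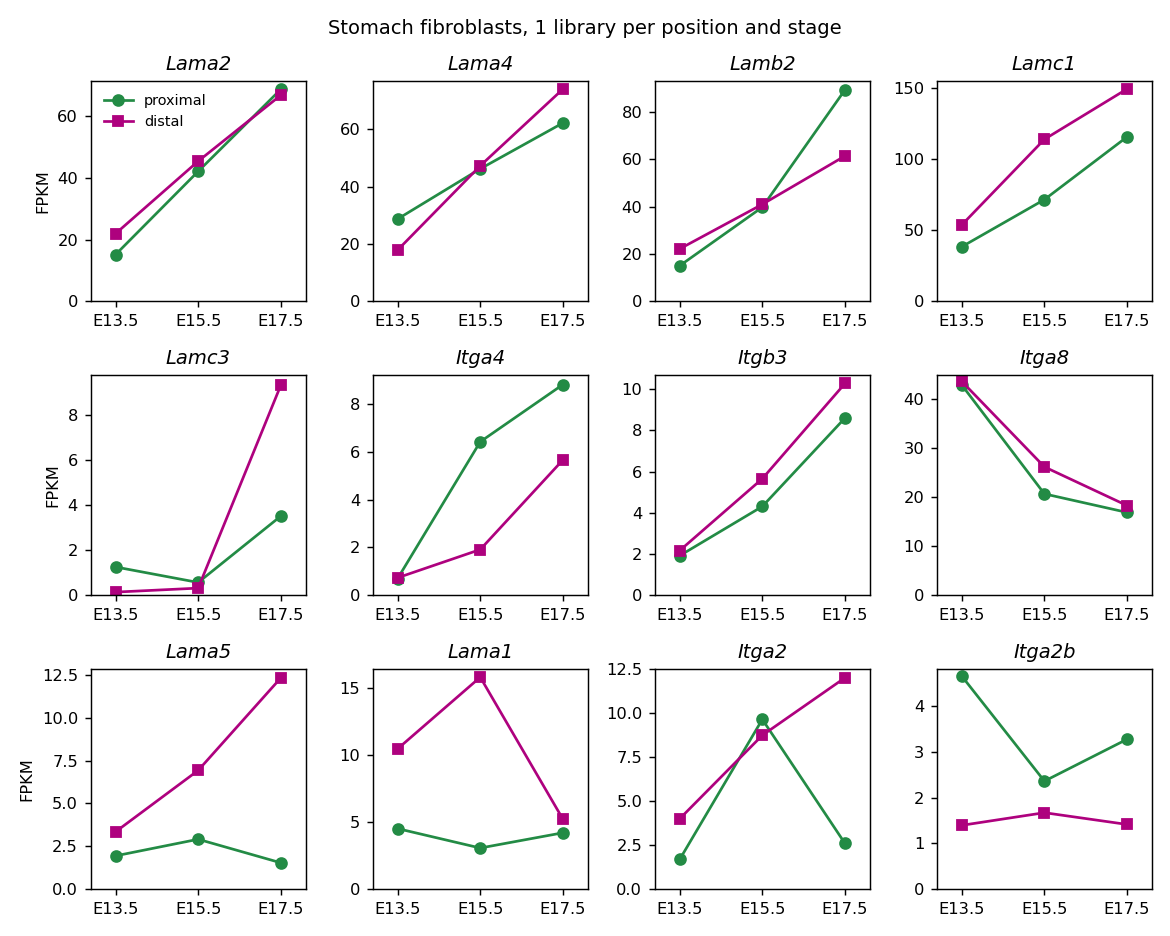
FPKM (linear axes starting at 0) of 12 integrin and laminin genes in proximal (green circles) and distal (purple squares) stomach fibroblasts at 3 stages, 1 library per point. The upper panels rise in both positions and Itga8 falls in both, and the positions part in the lowest panels, with Lama5 and Lama1 higher in distal and Itga2b higher in proximal fibroblasts at each stage.

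The surrounding matrix genes rose as well. Of 16 other basement membrane genes tested, 12 were called higher at E17.5 and 1 lower (Smoc2). Col15a1, a collagen of the outer basement membrane, was at 3.45 and 0.413 FPKM at E13.5 and 668 and 491 FPKM at E17.5 in proximal and distal fibroblasts (7.84 ± 0.30, adjusted p = 0.00236). Nid1 was at 52.5 and 68.0 FPKM at E13.5 and 231 and 201 FPKM at E17.5 (1.84 ± 0.17, adjusted p = 0.00569). Of 18 further integrin ligands tested, 15 were called higher and none lower, among them Postn (4.65 ± 0.75) and Tnc (3.68 ± 0.19), whose products bind alphav integrins. Of 22 activators and adaptors, 4 were higher and 3 lower. Of 6 genes listed as other laminin receptors, 1 was higher (Dag1) and 3 lower (Rpsa, Sdc1 and Bcam). Rpsa was at 1117 and 1045 FPKM at E13.5 and 554 and 541 FPKM at E17.5, far above the other genes of that list. As for the chains, no call was made without either E13.5 library.

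Position was compared with stage as a covariate, so that the 3 stages served as the replicates. None of the 23 genes tested was called by limma between distal and proximal fibroblasts, where 0% of 12900 genes were called. At an unadjusted p under 0.05 there were 5 of the 23 genes and 1287 of all genes. In 8 of the 23 genes distal was above proximal at all 3 stages (Itga1, Itga8, Itga9, Itgb3, Itgb8, Lama1, Lama5 and Lamc1) and in 1 it was below (Itga2b), where 16.7% and 16.3% of all genes were.

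The largest difference was that of Lama5, the epithelial alpha chain, at 1.93, 2.91 and 1.53 FPKM in proximal and 3.34, 6.94 and 12.4 FPKM in distal fibroblasts. The distal minus proximal log2 difference was 0.57, 1.02 and 2.40 at the successive stages, and its mean was 1.33 ± 0.39 (SE, adjusted p = 0.403). Summed epithelial markers in the fibroblast libraries did not exceed 9.35 FPKM. Lama1 was at 4.50, 3.05 and 4.19 FPKM in proximal and 10.4, 15.8 and 5.20 FPKM in distal fibroblasts, with a mean difference of 1.12 ± 0.36 (SE, adjusted p = 0.445). The gap was widest at E15.5 and small at E17.5. Itga2 was at 1.68, 9.65 and 2.59 FPKM in proximal and 3.99, 8.74 and 12.02 FPKM in distal fibroblasts (0.88 ± 0.40), and Lamc1, given above, differed by 0.50 ± 0.10. Itgb8, which with alphav activates latent TGF-beta, was at 1.89, 3.44 and 2.06 FPKM in proximal and 2.06, 5.74 and 3.92 FPKM in distal fibroblasts (0.46 ± 0.20).

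In the other direction, Itga2b, the platelet alpha chain, was at 4.66, 2.36 and 3.28 FPKM in proximal and 1.39, 1.67 and 1.41 FPKM in distal fibroblasts (-0.80 ± 0.25, adjusted p = 0.435). Proximal was higher at each stage. The 6 platelet and megakaryocyte markers summed to 1.17, 0.185 and 4.87 FPKM in proximal and 1.78, 2.13 and 2.97 FPKM in distal fibroblasts. Of the 4.87 FPKM, Pf4 made 4.03 FPKM, and the part of platelets in the Itga2b difference was not tested. Itga4 followed with -0.63 ± 0.31, from the values given above. Itga11, a fibroblast collagen receptor chain, was at 1.24, 2.69 and 7.44 FPKM in proximal and 2.25, 2.21 and 1.82 FPKM in distal fibroblasts, so that its sign changed between stages. Itga3 (-0.33) and Itga6 (-0.17), both at 2.83 FPKM or less in fibroblasts, also differed in sign between stages.

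The comparison of E13.5 epithelium with E13.5 fibroblasts asks which compartment makes which chain. Most of the genes differed: of 28 tested, 9 were called higher in the epithelium and 13 lower, where 55.2% of 13666 genes were called, 22.3% higher and 32.8% lower. The median log2 fold change was -0.47 over the 28 genes and -0.11 over all genes, which became 0.24 under TPM scaling and 0.02 under quantile normalization. All 3 laminin-binding integrins tested were higher in the epithelium (Itga3, Itga6 and Itgb4), and all 4 RGD-binding alpha chains were lower (Itga5, Itga8, Itgav and Itga2b).

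Itga6 had the largest positive change, at 24.7 to 94.7 FPKM in the 8 E13.5 epithelial libraries against 0.911 and 1.12 FPKM in proximal and distal E13.5 fibroblasts (4.54 ± 0.15, adjusted p = 5.66e-09). Lama5 was at 47.2 to 72.9 FPKM against 1.93 and 3.34 FPKM (4.02 ± 0.27, adjusted p = 8.29e-07). Lamb3 was at 7.84 to 16.8 FPKM against 0.0469 and 0.0703 FPKM (3.61 ± 0.19, adjusted p = 1.39e-07). None of these ranges came near the fibroblast values. Itgb6 was at 5.27 to 20.5 FPKM against 0.104 and 0.0987 FPKM (3.54 ± 0.39). Itga3 (2.69), Itgb4 (2.14), Itgb7 (1.57) and Lamc1 (0.68) were also higher in the epithelium.

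Itga8 had the largest negative change, at 0.00896 to 1.34 FPKM in the epithelium against 42.9 and 43.7 FPKM in fibroblasts (-4.98 ± 0.25, adjusted p = 1.04e-07). Itga9, a chain that binds tenascin and other matrix proteins, was at 0.531 to 1.89 FPKM against 48.4 and 52.8 FPKM (-4.60 ± 0.21, adjusted p = 6.31e-08). Lama2 was at 0.0311 to 0.312 FPKM against 15.1 and 21.9 FPKM (-4.05 ± 0.14, adjusted p = 6.37e-09). For each of these, both E13.5 fibroblast libraries stood more than an order of magnitude above every epithelial one. Itga5 was at 1.21 to 3.56 FPKM against 38.9 and 42.6 FPKM (-3.64 ± 0.11), and Lama4 at 0.554 to 2.46 FPKM against 28.7 and 17.9 FPKM (-3.21 ± 0.18). Itga1 (-3.003), Itgb3 (-1.44), Itgb1 (-1.09) and Itgav (-0.96) were also lower in the epithelium. So were Itga11 (-1.35), Itga2b (-1.21), Lama1 (-0.93) and Itgb8 (-0.45), but the call of Itga11 was lost without the distal (adjusted p = 0.175), those of Itga2b and Itgb8 without the proximal (0.193 and 0.496) and that of Lama1 without either E13.5 fibroblast library (up to 0.119). Lama1 and Itgb8 also lost the call on the TPM scale. The log2(FPKM + 1) scale understates the changes of chains near 0.

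The chains not called were Itga2, Itga4, Itgb5, Lamb1, Lamb2 and Lamc3. For Itga4 (-0.48) and Lamc3 (-0.67) this turned on the pseudocount, since with 0.1 they changed by -1.72 and -2.46 and were called lower (adjusted p = 0.00977 and 0.0133). Without the E13.5 proximal fibroblast library Itga4 (-0.97, adjusted p = 0.0319) and Lamb2 (-0.80, adjusted p = 0.0407) were called lower. Without the distal one, Lamb1 (-0.75, adjusted p = 6.50e-04) and Lamc3 (-1.40, adjusted p = 0.0140) were, and Lamb1 also with only the 10 E13.5 libraries (adjusted p = 0.0155). Itgb5 had opposite signs in the 2 scalings (-0.11 as deposited and 0.27 on the TPM scale), as had Lamb1 (-0.31 and 0.08). The partner genes split in a like way. All 3 hemidesmosome partners tested were higher in the epithelium (Cd151 by 2.50, Dst by 1.59 and Plec by 1.48). Col17a1, also listed, was below the filter, at means of 1.98, 0.0604 and 0.0558 FPKM in Sox2hi, Sox2midGata4mid and Gata4hi. In proximal and distal E13.5 fibroblasts Col17a1 was at 0.712 and 1.23 FPKM. Of 17 other basement membrane genes 6 were higher and 11 lower, with Nid2 (-4.52) and Nid1 (-4.40) the furthest down. Of 19 further integrin ligands 3 were higher and 13 lower. Of 6 genes listed as other laminin receptors 3 were higher and 2 lower, and of 24 activators and adaptors 4 were higher and 14 lower.

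**Figure D5:**
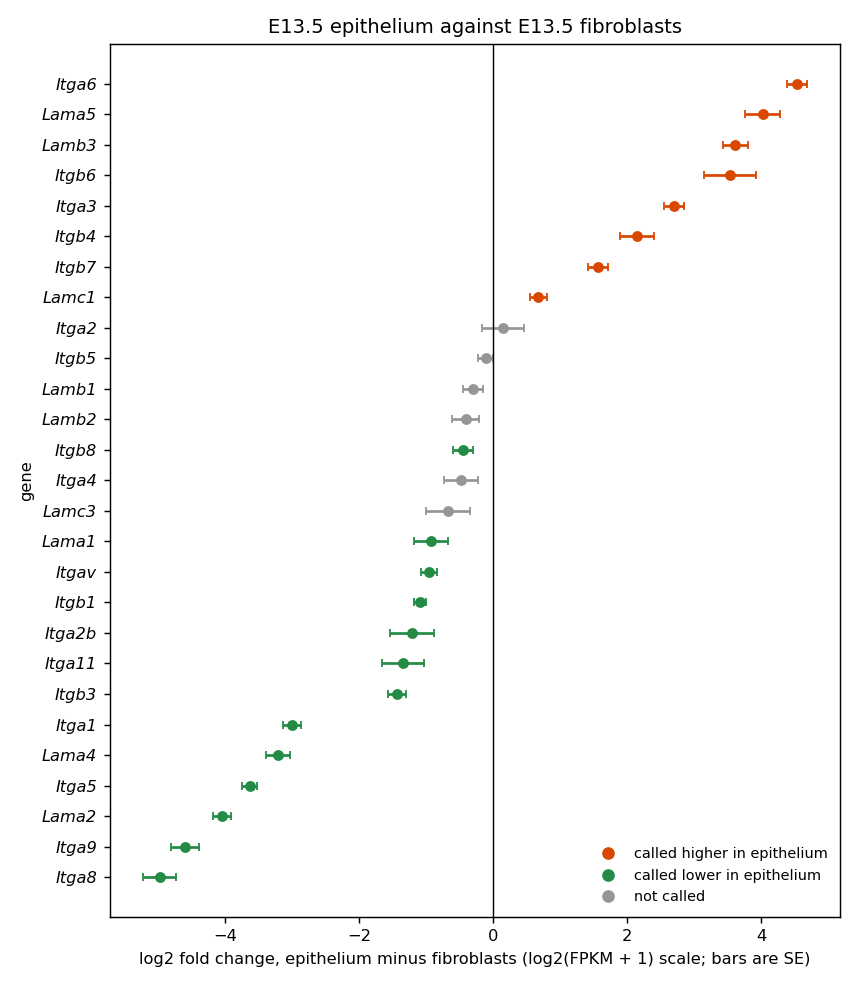
Log2 fold change of E13.5 epithelium over E13.5 fibroblasts for 27 of the 28 integrin and laminin genes tested, with bars for the SE from limma; colours give the call at an adjusted p under 0.05. Values run from -4.98 (Itga8) to 4.54 (Itga6), with Itga8, Itga9 and Lama2 furthest down and Itga6, Lama5 and Lamb3 furthest up.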

How the data were processed

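Values are the FPKM that the authors deposited as 1 table. Per the labels and the study's methods, reads of stranded mRNA libraries were trimmed (cutadapt 1.16), aligned to mm10 (HISAT2 2.1.0) and quantified (Cufflinks 2.2.1). How strand was treated in quantification and the normalization mode are not given in the sources used here. Of 53773 lines, 1 was emptied and 61 repeated a gene identifier; the entry with the highest mean was kept, which left 53711 genes. All 16 value columns were matched to samples by their labels. The file holds no counts, so depth is known only in relative terms, and no count test, interval or detection limit was computed. Symbols and coordinates are those of the file, and 35 of the 37 genes had the same coordinates in GENCODE M21.

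FPKM were taken as log2(FPKM + 1) and fitted with limma 3.58.1 (R 4.3.3, empirical Bayes with trend) over all genes whose mean over the libraries fitted reached 1 FPKM, with Benjamini-Hochberg adjustment over all of them; a call is an adjusted p under 0.05. The 8 E13.5 epithelial libraries shared 1 fit, the 6 fibroblast libraries 1 fit with stage and position, and the compartments were compared in a fit of all 14. Log2 fold changes understate the change of low genes. E11.5 was described without a test. The code was tested on simulated data.

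The genes, the gene lists and the tests were chosen with earlier results of these data known. The results of 1 gene are not reported here. Values in every library are given for the genes called between Gata4hi and Sox2hi, the highest of each role, the 5 largest changes each way in the other comparisons and 2-fold differences at E11.5, and up to 4 called genes of each partner list. Whether libraries of the same replicate number were paired is not stated, and the main fits did not use the number. Deviations from the group means correlated weakly, at 0.113, 0.119 and 0.163 for the same number in Sox2hi and Gata4hi and at -0.0993 to -0.0156 otherwise. The columns of replicates 1 and 2 are labelled in another style than those of the remaining E13.5 epithelial libraries, for a reason that is not given. Alternatives were a pseudocount of 0.1, no filter, TPM and quantile scaling, no variance trend, only the groups or stage compared, replicates 1 and 2 only, a replicate block and each library left out. Chains were searched in RefSeq promoter tables (GRCm38.p6), with chromosome 18 left out. Figures were drawn with matplotlib 3.10.9.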

Additional observations from a re-analysis of the deposited data

Results flagged for a closer look

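Among the genes that passed the filter of the E13.5 fit, 4 changed sign between the stages, and all 4 were laminins. Their Gata4hi minus Sox2hi difference at E11.5 was opposite to that of all 3 same-numbered E13.5 pairs, on the log2(FPKM + 1) scale. Below the filter, the integrin genes Itga8, Itga10 and Itgb3 had the same pattern. Each E11.5 difference rests on 1 library per group, and the difference between the stages was not tested. Lama1 differed by -0.017 at E11.5 and by 1.10, 0.89 and 1.34 in the E13.5 pairs. Lama4 differed by 0.03 at E11.5 and by -1.003, -0.72 and -0.69 at E13.5. Lamb1 differed by -0.043 and then by 0.25, 0.35 and 0.38, and Lamc1 by -0.17 and then by 0.24, 0.60 and 0.22. The E11.5 values of Lama1, Lama4 and Lamb1 were close to 0. No group has 4 or more libraries, so single outlying libraries were not looked for.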

How the results depend on the processing

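Among the values of single genes, none reversed a call. All calls between Gata4hi and Sox2hi held in all 16 alternatives except those of Lama4 and Lamb1, and 14 of 336 single-gene results changed their side of the threshold (11 lost and 3 gained a call). For Sox2midGata4mid against Sox2hi (3 higher, 3 lower, 728 genes in all), 1 gene was higher without the filter, with only the 2 groups compared (374 genes in all), with the replicate block and with replicates 1 and 2 only (339 genes in all), and 1 was lower with the block and with replicates 1 and 2 only. Without single libraries, 1 to 2 were higher, 1 to 3 lower and 240 to 624 genes called in all. For Sox2midGata4mid against Gata4hi (1 higher, 4 lower, 1784 in all), 3 were higher under TPM scaling and with no variance trend, 2 under quantile normalization (1006 in all) and 0 with only the 2 groups compared (1155 in all); without single libraries 0 to 1 were higher, 2 to 4 lower and 532 to 1804 called in all. For fibroblasts at E17.5 against E13.5 (11 higher, 1 lower, 4780 in all), 6 were higher, 2 lower and 2973 called in all without the filter, and 2 were lower with no variance trend; without single libraries 0 to 7 were higher, 0 to 1 lower and 0 to 2538 called in all. The replicate block changed no call other than those given in the report. Rescaling changed the split of calls over all genes: calls higher and lower were 1955 and 879 for Gata4hi against Sox2hi, 1236 and 1359 under TPM scaling and 1297 and 1180 under quantile normalization. For Sox2midGata4mid against Sox2hi they were 333 and 395, then 588 and 286, then 395 and 355, and against Gata4hi 340 and 1444, then 842 and 398, then 487 and 519. For the fibroblast stages they were 1285 and 3495, then 2070 and 1599, then 1738 and 2078, and for epithelium against fibroblasts 3054 and 4486, then 5252 and 2606, then 3791 and 3494. Unless stated, the cause was not tested. With 1 fibroblast library per position and stage, 2 residual degrees of freedom limit those tests, and the absolute depth behind low FPKM is unknown.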
